A study of Sus scrofa with 55 samples.

Results

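Late antral oocytes were compared with early ones among oocyte libraries in which granulosa gene counts did not exceed oocyte gene counts. A library was dropped when its summed counts of 4 granulosa genes (INHA, CYP11A1, HSD17B1 and GJA1) exceeded its summed counts of 5 oocyte genes (GDF9, BMP15, ZP2, ZP3 and ZP4). The libraries were thus chosen by measured values of these 9 genes, whose levels are given here as a description only. Of 55 oocytes in the series, 42 were kept and 13 were dropped. The comparison used 34 of the kept oocytes, 19 of the 23 at stages 1 and 2 (early) and 15 of the 21 at stages 4 and 5 (late), and the 8 kept oocytes of stage 3 stayed out of it.

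All oocytes were wild type and came from antral follicles of 4 pubertal gilts, numbered 201, 205, 801 and 803, whose breed is labelled Landrace Yorkshire. The gilts were 208 to 210 days old and had each received an injection of PMSG (5 IU), the pregnant mare gonadotropin that drives follicle growth, 48 h before their ovaries were removed. Early and late groups shared this treatment and differed in the stage of the follicle, and no group without the hormone was part of the comparison. Each library was made from the cytoplasmic RNA of 1 oocyte with Smart-seq2, a protocol that copies whole transcripts into cDNA, here amplified for 16 PCR cycles. For each gilt, early and late oocytes were pooled into separate sums of counts, and the gilt was the replicate (n = 4 gilts).

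An antral oocyte is held in prophase of meiosis while it completes growth. In its last phase of growth transcription slows down, and messages made earlier are stored, translated or removed as the oocyte gains the ability to mature. Granulosa and cumulus cells surround the oocyte and touch it through fine cell projections, so their transcripts can enter a library made from an oocyte.

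The sums rested on unequal numbers of oocytes. Gilt 201 gave 6 early and 4 late oocytes, gilt 205 gave 2 and 5, gilt 801 gave 6 and 4, and gilt 803 gave 5 and 2. The late oocytes of gilt 801 were all of stage 4 and those of gilt 803 all of stage 5. Gilt 803 also lost the most libraries to the selection, 12 of its 20, while gilt 801 lost 1 of 12 and gilts 201 and 205 lost none. Total counts per sum ran from 13186061 (early oocytes of gilt 803) to 106902463 (early oocytes of gilt 801), so 3 counts in a sum stood for 0.0132 to 0.185 CPM (counts scaled to a common library size).

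The selection left a gap in some places and a narrow margin in others. The ratio of granulosa to oocyte counts had a median of 0.00279 over the 34 compared oocytes and of 16.6 over the 13 dropped libraries. Just inside the threshold lay oocyte 3 of stage 2 in gilt 803, with 230 granulosa against 308 oocyte counts (ratio 0.747), and oocyte 1 of stage 1 in gilt 201 (ratio 0.711). Just outside lay oocyte 3 of stage 3 in gilt 803, with 23921 against 23867 counts (ratio 1.00). Among the late oocytes the highest ratio was 0.494, in oocyte 4 of stage 5 in gilt 803.

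**Figure D1:**
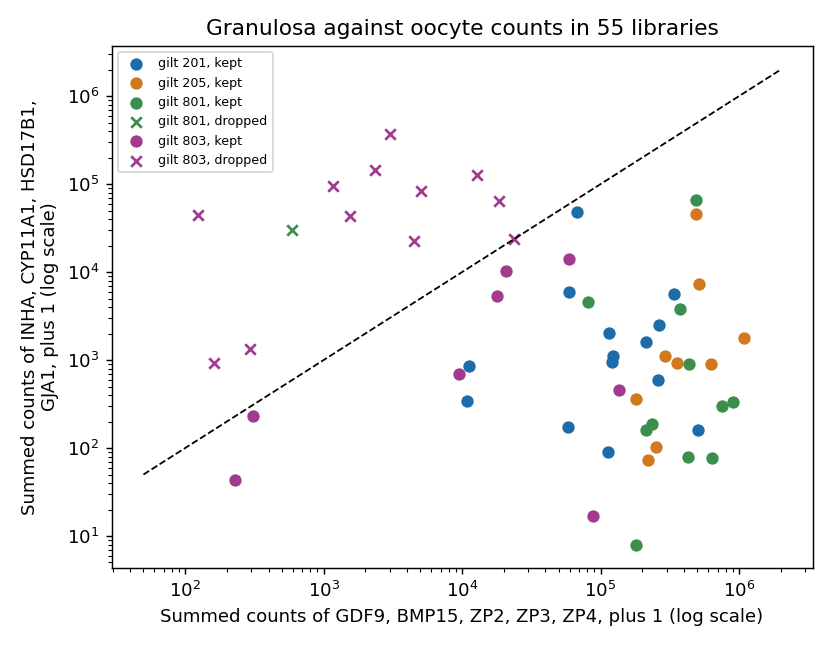
Summed counts of the 4 granulosa genes (vertical axis) against those of the 5 oocyte genes (horizontal axis) in each of the 55 libraries, as counts plus 1 on log axes, with a dashed line of equal counts as the threshold. The 42 kept libraries lie below the line and the 13 dropped ones above it, with the narrowest margin between ratios of 0.747 and 1.00.

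Of the 3 oocyte markers checked that the selection did not use, only OOEP had medians well above that of the dropped libraries. OOEP, part of the subcortical maternal complex, had medians of 53.1 CPM in early and 62.8 CPM in late oocytes, against 4.27 CPM in the dropped libraries. ZAR1, which binds maternal messages, had 14.3 and 13.8 CPM against 11.6 CPM, and the germ cell transcription factor FIGLA had 2.35 and 2.44 CPM against 2.19 CPM. For the selection genes the contrast with dropped libraries follows from the rule and is a description. ZP3, which codes for a protein of the zona pellucida around the oocyte, had a median of 6873 CPM in early and 6507 CPM in late oocytes, against 181 CPM in the dropped libraries. GDF9, a growth factor that the oocyte secretes to its granulosa cells, had medians of 1273 and 1450 CPM, against 60.8 CPM in the dropped libraries. INHA, the inhibin alpha subunit of granulosa cells, went the other way, with 15.8 CPM in early, 28.2 CPM in late and 2476 CPM in dropped libraries. ZP3 and GDF9 were detected in 19 of 19 early and 15 of 15 late oocytes. AMH, a granulosa product, had 0 counts in each of the 34 compared oocytes and a median of 0 CPM in the dropped libraries. The symbols DAZL, CYP19A1, FOXL2 and VWF were not found in the count table.

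Granulosa transcripts remained in some kept libraries. Summed granulosa and cumulus markers ran from 4916 to 35055 CPM in the dropped libraries, and 3 kept early oocytes and 0 kept late ones lay within that range. These were oocyte 4 of stage 1 in gilt 803 (10823 CPM), oocyte 1 of stage 1 in gilt 201 (6716 CPM) and oocyte 1 of stage 1 in gilt 205 (5475 CPM). The highest kept late oocyte stood at 2445 CPM. The sums hold the 4 selection genes, so the range of the dropped libraries partly follows from the rule. In the lowest dropped library these 4 genes held 4148 of the 4916 CPM. The count of 3 early against 0 late oocytes is therefore a description and depends on these genes. Markers of theca, stroma, blood and immune cells were near 0 in the median kept oocyte but high in a few. PTPRC, the pan-leukocyte surface protein, and C1QA, a complement chain of macrophages, had medians of 0 CPM on both sides and maxima of 409 and 1406 CPM.

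Several kept libraries stood apart. Their totals ran from 151104 to 38282850 counts, and the 3 under 2000000 were early oocytes of gilt 803. Mitochondrially encoded transcripts took 3.62% to 91.8% of counts, under 10% in 3 early and 2 late oocytes and at least 60% in 12 of 19 early and 11 of 15 late ones. The 5 oocyte genes together held under 2000 CPM in 2 early oocytes and 1 late oocyte. Oocyte 3 of stage 2 in gilt 803 held 159 CPM of these oocyte genes and 15563 CPM of blood, immune and endothelial markers, the highest level of that list among the 34. Oocyte 1 of stage 1 in gilt 201 held 6535 CPM of theca and stroma markers, also the highest of the 34.

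Oocytes of the same gilt had somewhat higher correlations than oocytes of different gilts, on the same side or across sides. Over 6064 nuclear genes of at least 10 CPM, the median Spearman correlation between oocytes was 0.419 for 64 pairs of the same gilt and side and 0.427 for 68 pairs of the same gilt on opposite sides. Between gilts it was 0.367 on the same side (212 pairs) and 0.368 on opposite sides (217 pairs). Pairs share oocytes and differ in depth and mitochondrial share, and these correlations are descriptions. The lowest median correlations with the other oocytes were 0.121 for oocyte 3 of stage 2 in gilt 803, 0.136 for oocyte 1 of stage 1 in gilt 201 and 0.218 for oocyte 4 of stage 2 in gilt 803.

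Measures of whole libraries did not separate late from early oocytes. The mitochondrially encoded share was 77.8%, 52.7%, 70.3% and 31.0% in the early oocytes of gilts 201, 205, 801 and 803 and 83.7%, 78.3%, 41.5% and 53.1% in their late oocytes. It was higher late in 3 of 4 gilts, with a mean difference of 6.20 ± 24.9 percentage points (SD, n = 4; exact two-sided sign-flip permutation p = 0.75). Genes detected at 1109755 counts drawn from each library numbered 8303 ± 1801 in early and 8647 ± 1742 in late oocytes (SD over 4 gilts; exact permutation p = 0.625), leaving out 1 shallower oocyte. The drawn counts include mitochondrially encoded ones, so the depth left for nuclear genes was not equal. Oocyte 3 of stage 4 in gilt 801 (3.62% mitochondrial) had 13569 genes, and oocyte 1 of stage 1 in gilt 801 (91.8%) had 3700. Summed markers differed late minus early by 0.38 ± 2.44 log2 units for granulosa and cumulus cells without the 4 selection genes (exact permutation p = 0.75), -0.51 ± 2.12 for theca and stroma (p = 0.625, exact) and -0.73 ± 1.69 for blood, immune and endothelial cells (p = 0.5, exact). With 4 gilts the smallest p this test can give is 0.125, so no such measure could pass 0.05.

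No gene passed the test between late and early oocytes. edgeR's quasi-likelihood test with gilt and side in the model called 0 of 13764 genes at a Benjamini-Hochberg adjusted p under 0.05, a share of 0%. At an unadjusted p under 0.05 there were 211 genes, where 688.2 would be expected if no gene differed, and the smallest adjusted p was 0.0991. limma also called 0 genes, and DESeq2 called 114, of which 107 were lower in late oocytes. In counts simulated on the 8 sums with edgeR's own fitted spread, DESeq2 called 157 unchanged genes, against 1 for edgeR and 0 for limma. Of 100 genes changed 4-fold in that simulation edgeR recovered 12, limma 3 and DESeq2 42. Genes of like level had the same spread there, which real genes need not have, so it cannot decide between the tools. The 114 calls of DESeq2 are given as values and are not read as differences. The median fitted change over all genes was -0.19 log2 units, and 42.3% of genes lay above 0. Genes higher in the late sum of all 4 gilts made up 4.53% (623 genes) and genes lower in all 4 made up 6.55% (901 genes). In 0.639% of genes (88) every late sum lay above every early sum, and in 0.872% (120) every late sum lay below.

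The spread between gilts was wide. The common biological coefficient of variation was 0.909. The SE of a fitted difference was derived from the edgeR test, as its size divided by the square root of its F statistic. It had a median of 1.07 log2 units over all genes tested, which came down to 0.721 where 1 side reached 10 CPM. A difference of 1 log2 unit was thus about 1 SE of a typical gene. Much larger ones did not pass either, such as that of CSRNP1 (4.22 ± 1.35, SE). The absence of calls does not show that early and late oocytes were alike.

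Among genes higher in the late oocytes of all 4 gilts, those with the smallest p belonged to several functions and none passed. LPGAT1, an acyltransferase of phospholipid remodelling, had 9.81, 7.09, 13.8 and 14.2 CPM in the early sums of gilts 201, 205, 801 and 803 and 46.3, 32.7, 16.9 and 148 CPM in the late sums. Every late sum lay above every early one, but gilt 801 differed little. The fitted difference was 2.05 ± 0.666 log2 units (SE; adjusted p = 1 by edgeR, as for all genes below unless stated).

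SOCS7, a member of the suppressor of cytokine signalling family, had early sums of 23.4, 33.0, 30.5 and 32.9 CPM and late sums of 36.0, 92.2, 46.0 and 380.3 CPM, with no overlap and a difference of 1.5 ± 0.645. MEX3C, an RNA-binding ubiquitin ligase, had 22.4, 12.6, 13.4 and 18.8 CPM early and 69.7, 50.5, 15.1 and 198 CPM late, with overlap through gilt 801 (1.80 ± 0.653). TCF7, a transcription factor of Wnt signalling, went from 8.86 ± 4.04 to 31.1 ± 18.2 CPM (SD, n = 4 gilts; 1.69 ± 0.657). In each of these genes the late sum of gilt 803 was the highest of the 8.

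The other leading higher genes were CSRNP1, a nuclear protein (4.22 ± 1.35), FZD7, a Wnt receptor (2.98 ± 1.14), SNAI1, a transcriptional repressor (2.00 ± 0.834), CLDN1, a tight junction protein (1.84 ± 0.702), ZNF445, a zinc finger protein that keeps imprints in mouse and human (1.72 ± 0.693), and ATP2A2, the calcium pump of the endoplasmic reticulum (1.33 ± 0.532). Of ZNF445 the early sums ran from 5.10 to 16.1 CPM and the late sums from 19.5 to 34.4 CPM, the most even late levels of these 10 genes. In all 10 genes gilt 801 had the smallest difference.

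**Figure D2:**
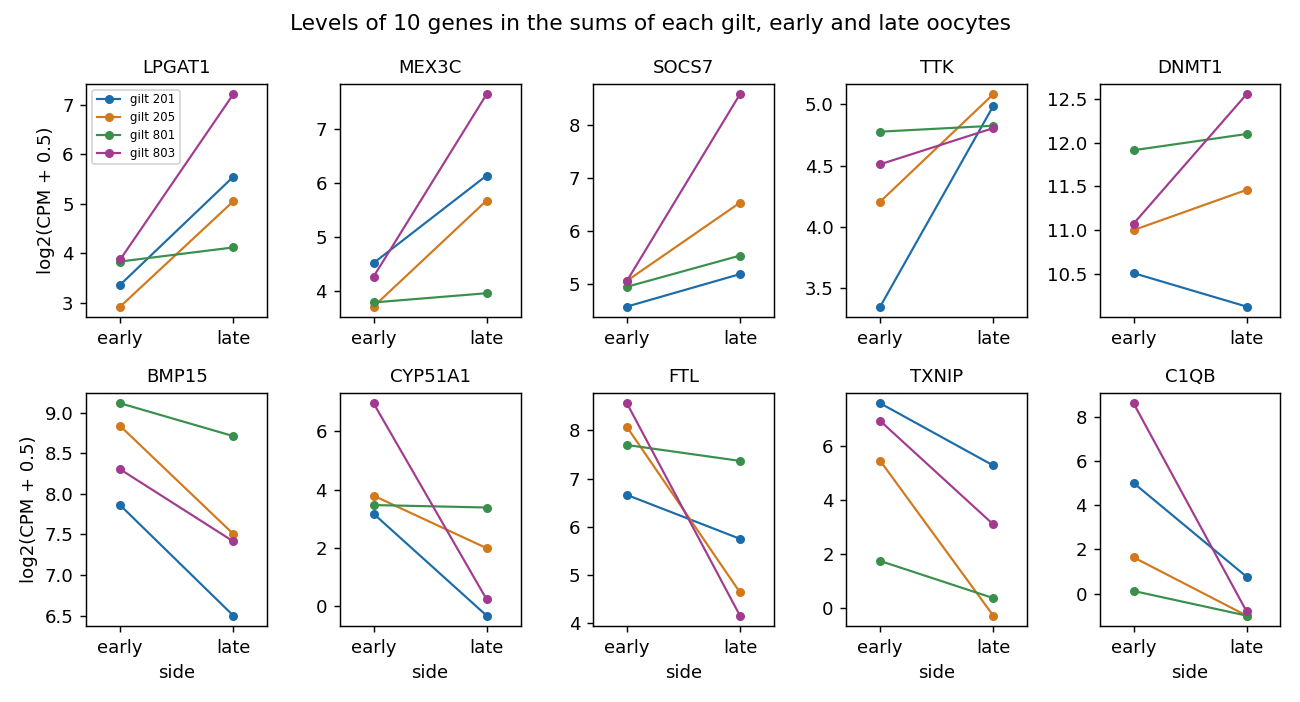
Level of 10 genes in the 8 sums, as log2 of scaled CPM plus 0.5, with the early and late sum of each gilt joined by a line. LPGAT1, SOCS7 and TTK had every late sum above every early one, while the lines of gilt 801 are close to flat in most panels.

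On the late side a single oocyte carried much of this. In 7 of the 10 genes the largest share of late counts came from oocyte 4 of stage 5 in gilt 803, with 27.7% to 72.9% of all late counts. LPGAT1 stood at 291 CPM (unscaled) in that oocyte, against a median of 13.4 CPM over late and 4.44 CPM over early oocytes. Without that oocyte the difference was 1.04 for LPGAT1, 0.16 for SOCS7, 0.86 for MEX3C, 2.02 for CSRNP1 and 1.59 for ZNF445. The same oocyte held 952 CPM of the 5 oocyte genes, the lowest of the late oocytes, and a mitochondrial share of 33.2%. Their part in the result was not tested. On the early side, oocyte 4 of stage 2 in gilt 801 was the top oocyte for each of the 10 genes. It held from 25.3% (FZD7) to 73.4% (CSRNP1) of early counts, with 30486613 counts in total and a mitochondrial share of 4.68%. In the late sum of gilt 801, oocytes 2 and 3 of stage 4 had mitochondrial shares of 4.73% and 3.62%. The part of these libraries in the small differences of gilt 801 was not tested.

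Of the 10 genes with the smallest p among those lower in all 4 gilts, 3 (NKG7, C1QB and MGP) belonged to the lists of blood or stroma cells. These lists held 15 genes each of the 13764 tested. A gene high in early sums could pass the filter on low counts with few late counts, as MGP did with 6005 early and 87 late counts. The count of 3 rests in part on such genes and is a description. NKG7, a granule protein of cytotoxic lymphocytes, had early sums of 5.97, 1.38, 0.0154 and 114 CPM and late sums of 0, 0, 0 and 0.561 CPM, or 2124 early and 24 late counts in all. Its fitted difference of -7.79 ± 1.08 had the smallest p of the genes with a symbol (adjusted p = 0.0991). C1QB, a complement C1q chain of macrophages, had 31.9, 2.63, 0.586 and 396 CPM early and 1.2, 0, 0 and 0.0701 CPM late (-8.56 ± 1.42, adjusted p = 0.342). The early and late sums of both genes overlapped, through the early sum of gilt 801. Fitted differences of genes with late sums at 0 depend on the prior count of the fit, and so do the SEs derived from them.

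C7, a terminal complement protein, had 28.6, 2.1, 0.362 and 60.3 CPM early and 0, 0, 0.0044 and 2.66 CPM late (-6.85 ± 1.3, adjusted p = 0.658). TXNIP, an inhibitor of thioredoxin that responds to glucose, had 191, 43.3, 2.87 and 121 CPM early and 38.4, 0.333, 0.805 and 8.10 CPM late (-3.55 ± 0.894). The early sum of gilt 801 lay below late sums of other gilts in each gene. MSMB, a secreted protein (-4.01 ± 1.01), NUPR1, a stress-induced chromatin protein (-2.71 ± 0.692), and CTSL, a lysosomal protease (-3.36 ± 0.940), followed the same order of gilts only in that gilt 801 had the smallest difference. DAB2, an endocytic adaptor, had -3.84 ± 0.986, CFD, complement factor D, had -6.40 ± 1.60, and MGP, a matrix protein, had -6.49 ± 1.77.

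Few early oocytes held most of these counts. Oocyte 1 of stage 1 in gilt 201 was the top early oocyte for 6 of the 10 lower genes, with 45.5% to 85.2% of early counts. Oocyte 3 of stage 2 in gilt 803 was the top one for 3, with 76.3% to 86.3%, and oocyte 1 of stage 1 in gilt 205 for CTSL, with 62.4%. These are the libraries named above for high theca and stroma markers (6535 CPM) and high blood markers (15563 CPM), and in the last of them theca and stroma markers stood at 1999 CPM. The part of these other-cell transcripts in the lower genes was not tested. Without oocyte 3 of stage 2 in gilt 803 the difference of C1QB was -7.00, and NKG7 no longer passed the filter on low counts. TXNIP ranged from -3.81 to -2.79 as each of the 34 oocytes was left out.

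**Figure D3:**
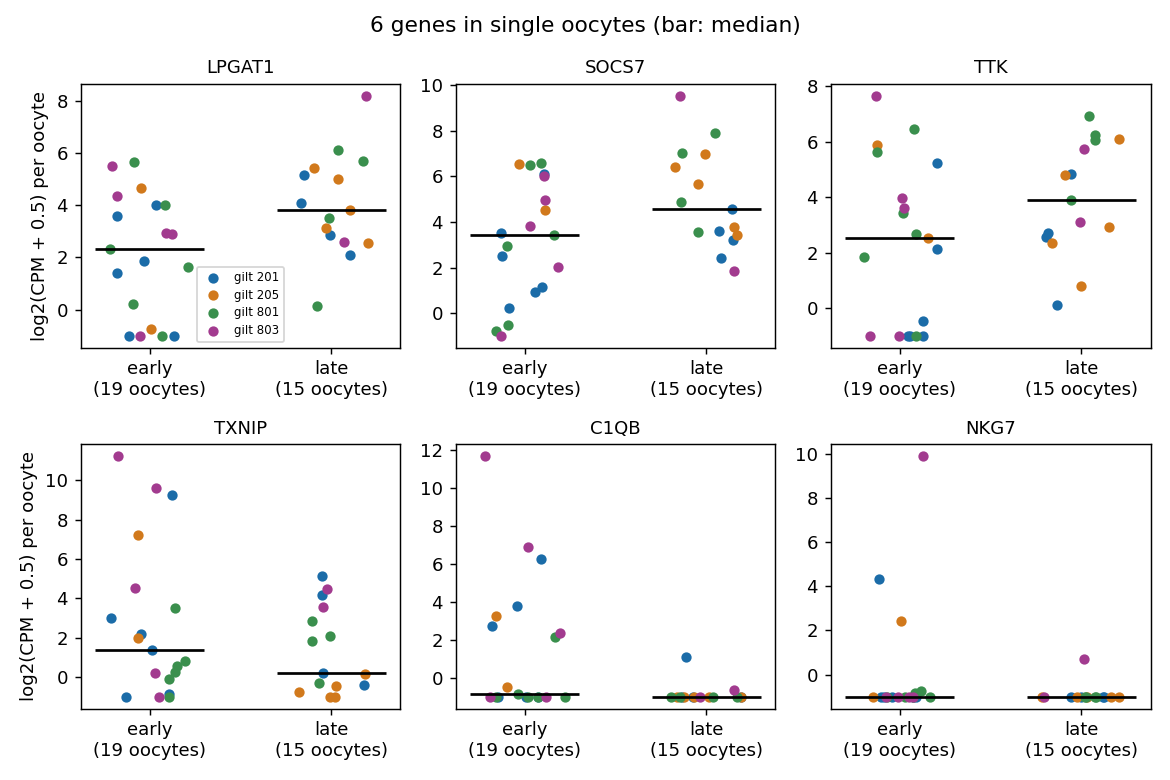
Level of 6 genes in each of the 34 oocytes, as log2 of unscaled CPM plus 0.5, by side and coloured by gilt, with a bar at the median. High levels of C1QB and NKG7 are seen in a few early oocytes, and the highest LPGAT1 and SOCS7 levels belong to 1 late oocyte of gilt 803.

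Calls arose in some refits with a gilt or an oocyte left out. Without gilt 801 edgeR called 11 genes, all lower late, and without gilt 201 it called C1QB. It called 2 genes without oocyte 4 of stage 1 in gilt 803, 3 without oocyte 4 of stage 2 in gilt 801, 1 without oocyte 3 of stage 5 in gilt 201 and 3 without oocyte 4 of stage 5 in gilt 803. NKG7 and C1QB were among these calls, with adjusted p of 0.0213 (NKG7) in the first and 0.0196 (C1QB) in the last. Without any other gilt or oocyte it called 0 genes.

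Of 27 tested oocyte-specific and maternal-effect genes 0 were called. The list holds the 5 oocyte genes used for selection. Without them 14 of 22 genes lay below 0 and 8 above, with a median of -0.37 against -0.19 over all genes, and with them the median was -0.56. The median of the whole list was -0.32 without oocyte 4 of stage 5 in gilt 803. BMP15, a growth factor secreted by the oocyte, had 232, 457, 555 and 315 CPM early and 89.9, 181, 419 and 170.1 CPM late. It was lower late in all 4 gilts, with early and late sums overlapping. GDF9 went from 1641 ± 668 to 1539 ± 1252 CPM and ZP3 from 8805 ± 5506 to 8715 ± 8689 CPM (SD, n = 4 gilts), with late sums of 122 and 252 CPM in gilt 803.

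UCHL1, a deubiquitinase abundant in oocytes, was the other member lower in all 4 gilts (-0.74 ± 0.539), as 6.55% of all genes were. ZAR1L, a partner of maternal mRNA stores, had 171, 549, 444 and 169.5 CPM early and 75.8, 218, 465 and 28.3 CPM late (-1.25 ± 0.606). It was higher late in gilt 801 only. By gilt the list median without the selection genes was -0.06, -0.25, 0.02 and -0.95 in gilts 201, 205, 801 and 803.

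Genes of meiotic arrest and of the spindle lay near or slightly above the background. For meiotic arrest and resumption 17 of 34 genes lay above 0 (median -0.01). CCNB1, the cyclin B1 that activates CDK1 for entry into the meiotic divisions, had 103, 126, 264 and 144 CPM early and 90.7, 111, 193 and 143 CPM late (-0.21 ± 0.491). MOS, the kinase that drives the MAPK pathway in maturing oocytes, had -0.42 ± 0.586, and MASTL, the Greatwall kinase that protects CDK1 substrates from dephosphorylation, had 0.88 ± 0.578 and was higher late in all 4 gilts. MASTL had a late sum of 242 CPM in gilt 803, against 29.8 to 80.8 CPM in the others.

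Of 50 spindle, kinetochore and checkpoint genes 31 lay above 0 (median 0.28). In all 4 gilts 3 were higher and 3 lower, close to the all-gene shares of 4.53% and 6.55%. TTK, the checkpoint kinase MPS1, had 9.69, 17.9, 26.9 and 22.3 CPM early and 31.2, 33.4, 27.8 and 27.5 CPM late. Every late sum lay above every early one, as in 0.639% of all genes, by less than 1 CPM at the closest. The difference was 0.73 ± 0.594, with the other sign in the deposited length-scaled table. KIF18A, a kinesin that limits chromosome movement on the spindle, had 1.25 ± 0.681. The late sums of TTK varied little between gilts (30.0 ± 2.82 CPM, against 19.2 ± 7.33 CPM early). Meiotic cohesin and recombination genes had a median of 0.22 (20 of 30 above 0), and 0 were higher or lower in all 4 gilts.

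DNA methylation and chromatin genes lay above the background in 3 of 4 gilts. Of 18 DNA methylation genes 10 lay above 0 (median 0.24), with gilt medians of -0.35, 0.51, 0.13 and 0.93. DNMT1, the maintenance methyltransferase, had 1459, 2050.1, 3858 and 2156 CPM early and 1119, 2819, 4386 and 6007 CPM late (0.43 ± 0.712, with the other sign in the deposited length-scaled table). UHRF2, a reader of methylated DNA, went from 237 ± 87.4 to 421 ± 78.8 CPM (0.88 ± 0.557), and DNMT3B, a de novo methyltransferase, from 24.9 ± 5.76 to 47.9 ± 20.2 CPM (0.85 ± 0.570). DNMT3B was higher late in all 4 gilts. DNMT3A, the de novo methyltransferase that acts in mouse oocytes, had 0.84 ± 0.666 and was lower late in gilt 201.

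Histone-modifying enzymes had 30 of 47 genes above 0 (median 0.32), with NSD1, an H3K36 methyltransferase, at 1.48 ± 0.675 and SETD2, which trimethylates H3K36, at 1.92 ± 0.951. Without oocyte 4 of stage 5 in gilt 803 the list medians were -0.32 for histone-modifying enzymes, -0.30 for DNA methylation, -0.49 for cohesin and recombination and -0.08 for the spindle list. NSD1 then stood at 0.52 and DNMT1 at -0.01. That oocyte gave 70.3% of all late SETD2 counts.

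Messages for mRNA storage and decay showed the same dependence. Of 47 deadenylation and mRNA decay genes 32 lay above 0 (median 0.35), with 1 higher and 0 lower in all 4 gilts (4.53% and 6.55% over all genes). CNOT6L, a CCR4-NOT subunit that shortens poly(A) tails and clears maternal messages in mouse oocytes, had 25.6, 13.3, 29.5 and 32.0 CPM early and 20.6, 56.3, 29.6 and 139 CPM late (0.98 ± 0.652). CNOT7, another tail-shortening subunit, had 0.80 ± 0.520. Without oocyte 4 of stage 5 in gilt 803 the list median was -0.02, CNOT6L stood at 0.07 and CNOT7 at 0.03. Maternal mRNA storage and translational control had a median of 0.06 (18 of 33 above 0).

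RNA polymerase II transcription had 19 of 39 genes above 0 (median -0.02). Of its members MED14 and MED1, both subunits of the Mediator complex, had no overlap between sides, every late sum being above every early one as in 0.639% of all genes. MED14 had 24.0 to 40.2 CPM early and 40.7 to 158 CPM late (1.12 ± 0.598), and MED1 had 14.7 to 27.2 CPM early and 30.1 to 304 CPM late (1.26 ± 0.762). Oocyte 4 of stage 5 in gilt 803 gave 32.8% of late MED14 and 58.3% of late MED1 counts. The list of histones and linker histones had a median of 0.08 over 13 genes.

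Ribosomal protein genes and nuclear-encoded energy genes had medians below that of all genes. All 44 tested cytosolic ribosomal proteins were below 0 (median -1.06), 12 were lower in all 4 gilts (6.55% over all genes) and 0 passed. RPL6, a large subunit protein, had 321, 172, 88.8 and 463 CPM early and 204, 48.0, 76.0 and 70.2 CPM late (-1.36 ± 0.608), with overlap. The list medians by gilt were -0.46, -1.26, 0.11 and -2.75 in gilts 201, 205, 801 and 803, so gilt 801 did not share the direction. The median was -0.46 without oocyte 4 of stage 5 in gilt 803.

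Of 55 nuclear-encoded oxidative phosphorylation genes 53 lay below 0 (median -0.73), with gilt medians of 0.69, -1.32, 0.00 and -2.20. NDUFS5, a complex I subunit, had 53.3, 36.0, 23.9 and 33.2 CPM early and 21.8, 14, 23.4 and 11 CPM late (-1.08 ± 0.584). Every late sum lay below every early one, as in 0.872% of all genes, by a margin of less than 1 CPM in gilt 801. The median was -0.04 without oocyte 4 of stage 5 in gilt 803. The 13 mitochondrially encoded proteins had a median of -0.15, close to that of all genes, with gilt medians of 0.58, 2.14, -2.64 and -0.78. COX1, a cytochrome c oxidase subunit, had -0.26 ± 2.07, with 560633 and 827334 CPM early and late in gilt 201 and 147558 and 22438 CPM in gilt 801.

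Glycolysis and pyruvate entry had 26 of 31 genes below 0 (median -0.71), the proteasome 23 of 32 (-0.42) and redox defence 25 of 28 (-0.81). The medians were -0.22 for glycolysis without oocyte 4 of stage 5 in gilt 803, -0.17 for the proteasome without oocyte 1 of stage 1 in gilt 205 and -0.49 for redox defence without oocyte 4 of stage 1 in gilt 803. FTL, the ferritin light chain that stores iron, had 101, 269, 207 and 379 CPM early and 53.1, 24.3, 165 and 17.2 CPM late (-2.28 ± 0.825). It was lower late in all 4 gilts, least in gilt 801. GSTM3, a glutathione transferase, had -1.37 ± 0.641, GPI, a glycolytic isomerase, had -1.19 ± 0.553, and PSMA4, a proteasome core subunit, had -1.16 ± 0.539. Each of these was lower late in all 4 gilts.

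Cholesterol and isoprenoid synthesis had 26 of 28 genes below 0 (median -0.99), with 5 lower in all 4 gilts (6.55% over all genes). Oocytes make little cholesterol of their own in the mouse and obtain it from cumulus cells. CYP51A1, the lanosterol demethylase, had 8.53, 13.4, 10.6 and 124 CPM early and 0.299, 3.48, 9.96 and 0.677 CPM late (-3.40 ± 1.28). HMGCS1, which makes HMG-CoA, had -2.34 ± 1.41, and INSIG1, a sterol sensor, had -1.56 ± 0.809. The highest early sum of each gene was that of gilt 803.

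Oocyte 4 of stage 1 in gilt 803 gave 44.0% of all early CYP51A1 counts and held 10823 CPM of granulosa and cumulus markers, the highest of the 34. Without it CYP51A1 stood at -1.99 and the list median at -0.56. The part of granulosa transcripts in these levels was not tested. Lipid droplet and fatty acid genes had a median of -0.32 (24 of 35 below 0), and the list of stress response and apoptosis -0.39 (23 of 33 below 0). Without oocyte 1 of stage 1 in gilt 205 these medians were -0.14 and -0.18.

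Signalling lists were mixed. Of 38 TGF-beta superfamily receptors, ligands and SMADs 22 lay above 0 (median 0.29), and 5 were higher and 0 lower in all 4 gilts (TGFB3, BMPR1B, SMURF2, ACVR1B and BMP6). The all-gene shares were 4.53% higher and 6.55% lower. The gilt medians were 0.30, 0.52, 0.19 and 0.37. The fitted median was 0.06 without oocyte 2 of stage 4 in gilt 205 and 0.77 without oocyte 1 of stage 1 in gilt 205. BMP4, a ligand made by follicle cells, had 6.42, 16.3, 8.05 and 3.34 CPM early and 53.1, 17.4, 7.05 and 296 CPM late (2.05 ± 1.13), and 79.7% of its late counts came from oocyte 4 of stage 5 in gilt 803. SMAD9, a BMP effector, had 451 early and 106 late counts (-1.29 ± 3.63).

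Insulin, IGF and mTOR signalling had 16 of 33 genes above 0 (median -0.01). INSR, the insulin receptor, had 18.2, 2.64, 0.362 and 0.681 CPM early and 0, 0.0476, 0.194 and 0.117 CPM late. Every late sum of INSR lay below every early one, as in 0.872% of all genes, and its difference was -4.27 ± 1.96. It rested on 839 early and 51 late counts. Of the early counts 62.8% came from oocyte 1 of stage 1 in gilt 201, the library with the highest theca and stroma markers.

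Markers of other cells had negative medians. The granulosa and cumulus list holds the 4 granulosa genes used for selection, and without them 17 of 21 genes lay below 0 (median -0.86, with gilt medians of -0.11, -1.80, 0.47 and -1.24). Theca and stroma markers had 13 of 15 genes below 0 (-2.08), and the list of blood, immune and endothelial cells 12 of 15 (-3.12). In the last list 7 genes were lower in all 4 gilts and in the theca list 5, and 1 of the 21 granulosa genes was. Over all genes the share was 6.55%. Of the genes in the count table, 15 of 22 theca and 15 of 24 blood genes passed the filter on low counts. A gene high in early sums could pass with few late counts, as CD74 did with 11527 early and 82 late counts. The medians and counts of these 2 lists rest in part on such genes and are a description. CD74, the invariant chain of antigen-presenting cells, had 83.8, 25.1, 0.0231 and 439.5 CPM early and 4.55, 0.0952, 0.0088 and 0 CPM late (-6.51 ± 1.84). COL1A2, a collagen chain of stroma cells, had 612, 155, 5.18 and 7.93 CPM early and 29.9, 38.3, 4.68 and 1.12 CPM late (-2.35 ± 0.753).

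These medians moved with single early oocytes. The theca median was -0.13 without oocyte 1 of stage 1 in gilt 205, and the blood median was -1.09 without oocyte 3 of stage 2 in gilt 803. The median of the whole granulosa list, -0.93 with every oocyte, was -0.06 without oocyte 4 of stage 1 in gilt 803. INHA, used in the selection, had early sums of 1231, 434, 3.50 and 139 CPM and late sums of 139, 35.3, 26 and 125 CPM. CYP11A1, the first enzyme of steroid synthesis, had 141 ± 102 CPM early and 138 ± 173 CPM late.

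**Figure D4:**
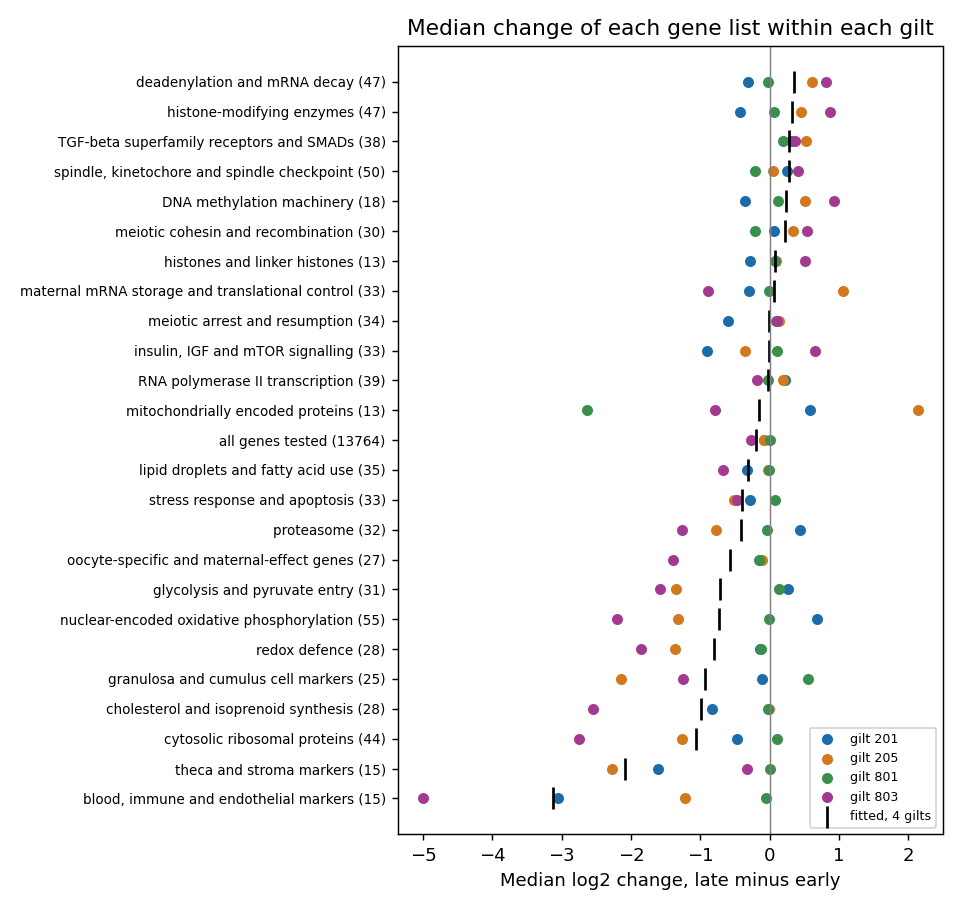
Median late minus early difference (log2) of 24 gene lists and of all 13764 tested genes, fitted over 4 gilts (black bars) and within each gilt (coloured points). Ribosomal, nuclear-encoded oxidative phosphorylation, cholesterol and other-cell lists lie below the all-gene median of -0.19. In the ribosomal and oxidative phosphorylation lists gilt 803 lies furthest left and gilt 801 near 0, while in the mitochondrially encoded list gilt 801 lies furthest left.

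The 8 granulosa-poor oocytes of stage 3, placed in the same fit as a middle group, gave each leading gene a value against early oocytes. The genes were chosen on the late against early comparison, and both comparisons share the early sums, so these values are a description. SOCS7 stood at 1.33 at stage 3 and 1.68 late against early, while LPGAT1 stood at -0.10 and 2.19. C1QB stood at -7.90 and -7.99. Stage 3 had the same sign as late oocytes in 6 of the 10 higher and 9 of the 10 lower genes. Those with the other sign included SNAI1 (-5.11 at stage 3, 1.49 late) and CTSL (1.83 at stage 3, -3.58 late).

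The selection changed the values of the lists. With no library dropped, edgeR called 3 of 14381 genes, all lower late: NKG7 (-8.93 ± 1.18, adjusted p = 0.0380), C1QB (-7.30 ± 0.934, adjusted p = 0.0380) and 1 gene ID without a symbol. The list medians were then -0.56 for cytosolic ribosomal proteins, 0.00 for oxidative phosphorylation, -0.50 for cholesterol synthesis and 0.08 for the spindle list, with an all-gene median of -0.08. These fits share most of their libraries, and the difference between them was not tested.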

How the data were processed

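Raw counts per Ensembl gene ID, 1 oocyte per column, were deposited by the authors. The submitters' processing notes name HISAT2 2.1.0, StringTie 1.2.2, featureCounts and Trim Galore 0.4.3. Genome build, annotation and strandedness: not given in the sources used here. Reads of overlapping or near-identical genes could be split and no gene positions are stated. A further deposited table named for TPM does not share 1 sum per column; its values were used on another, length-scaled scale as an alternative only, over 23498 complete rows, since its last line ends after 21 values. Symbols were found for 14857 of 25880 IDs.

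Counts of the kept oocytes were summed per gilt and side and fitted with edgeR 4.0.16 in R 4.3.3 (gilt and side in the model, 3 residual degrees of freedom, TMM factors of 0.325 to 2.83, filterByExpr by side, quasi-likelihood F test, two-sided, Benjamini-Hochberg adjustment over all genes, threshold 0.05). CPM of sums is scaled by TMM and CPM of oocytes is not. DESeq2 1.42.0 and limma 3.58.1 (log2 of CPM plus 1) were alternatives. Library measures were means over oocytes, compared by an exact sign-flip test.

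Pairing came from the labels, which name the gilt of each oocyte: both sides come from the same animals. Deviations from the side means correlated at 0.283, -0.00863, 0.520 and 0.126 in gilts 201, 205, 801 and 803, with a mean of -0.0742 between gilts. Such deviations cancel out over the gilts of a side. The between-gilt mean is therefore tied to the within-gilt values and is not an independent baseline.

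Named genes were to be the 10 largest called changes each way with at least 10 CPM on 1 side and the same sign in all 4 gilts. As none was called, the 10 with the smallest unadjusted p each way are given, out of 381 higher and 365 lower candidates, with up to 3 members per list by smallest p and a set of genes always named. The oocytes, gene lists and tests were chosen with earlier results of these data known. The limits of 3 counts cover counting error only, since without molecular identifiers PCR copies of 1 molecule are counted repeatedly. Oocytes of 1 gilt are not independent, and fewer transcripts per oocyte and a smaller share of the library cannot be told apart from CPM.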

Additional observations from a re-analysis of the deposited data

Results flagged for a closer look

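In 19 of 180 groups of 4 sums, 1 gilt lay far from the other 3 on the log2 scale by Dixon's test at its 95% critical value, where chance flags about 1 in 20 groups. Gilt 803 stood apart in late sums with high values for MED14 (158 CPM, others 40.7 to 50.9), MED1 (304 CPM, others 30.1 to 37.8), CNOT7 (332 CPM, others 80.6 to 96.2), ACAT2, a thiolase (10.3 CPM), C7 (2.66 CPM), NKG7 (0.561 CPM) and CFD (0.234 CPM), and with a low value for GSTM3 (7.47 CPM, others 88.1 to 144). In early sums it stood high for CYP51A1 (124 CPM, others 8.53 to 13.4).

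Gilt 201 stood high in late sums for HSD17B1, an estrogen-making enzyme (209 CPM, others 9.07 to 12.6), COL3A1 (5.09 CPM), MGP (4.67 CPM), CD74 (4.55 CPM) and C1QB (1.2 CPM), and in early sums for TGFB3 (2.08 CPM). Gilt 801 stood low in early sums for CYP11A1 (1.92 CPM, others 129.9 to 218) and PRKAR2B, a regulatory subunit of protein kinase A (2.47 CPM, others 26.8 to 32.6), and high for MED14 (40.2 CPM, others 24.0 to 25.9). Gilt 205 stood low in early sums for SNAI1 (1.10 CPM, others 6.13 to 6.42).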

How the results depend on the processing

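The count of called genes moved from 0 to 114 with DESeq2, 41 with no filter on low counts, 3 with no library dropped, 2 without libraries under 10% mitochondrially encoded, 1 without libraries under 2000 CPM of oocyte genes, 1 for stage 4 alone and 14 for stage 5 alone, and ran from 0 to 11 over refits with 1 gilt or oocyte left out. It stayed at 0 in the other alternatives, among them no replicate block (0 calls, 550 at an unadjusted p under 0.05), so the paired model changed no call. The added alternatives on libraries, stages, single oocytes and the selection genes were chosen after seeing the data. Of 75 named genes with a test 65 kept their sign in all those of the 23 settings that tested them. A gene filtered out of a setting was not counted as turned there. The leading genes each way had been chosen for the same sign in all 4 gilts. Signs turned for GPI (0.16) and SDHA (0.12) with each oocyte as a library, for MASTL (-0.12), SDHA (0.00587) and DNMT1 (-0.23) with libraries dropped above a ratio of 0.1 (which left gilt 803 with no late oocyte), and for NSD1 (-0.24) and MASTL (-0.0202) with stage 4 alone. They turned for DNMT1 (-0.15) and TTK (-0.12) in the length-scaled table, for DNMT1 (-0.0762) and DNMT3A (-0.0425) without libraries under 2000 CPM of oocyte genes, and for CCNB1 (0.14) without those under 10% mitochondrially encoded. COX1 turned to 0.41 with oocytes weighted equally, 0.47 with no replicate block, 0.15 in the length-scaled table, 0.0553 and 0.46 without libraries low in mitochondrial or oocyte transcripts, and 0.19 and 0.49 with stage 4 or 5 alone. With each gilt left out COX1 ran from -1.07 to 0.51 and SMAD9 from -3.87 to 1.37. Over the same settings list medians ran from -1.74 to -0.14 for ribosomal proteins, -1.89 to -0.30 for cholesterol synthesis and -3.77 to -0.70 for theca and stroma. They crossed 0 for oxidative phosphorylation (-1.09 to 0.15), glycolysis (-1.28 to 0.20), redox defence (-1.32 to 0.17), the proteasome (-0.66 to 0.26), blood markers (-6.58 to 0.43), granulosa markers (-1.83 to 0.03), the spindle (-0.15 to 0.39), mRNA decay (-0.01 to 0.49), DNA methylation (-0.22 to 0.69), histone-modifying enzymes (-0.33 to 0.73), TGF-beta genes (-0.27 to 0.79), meiotic arrest (-0.33 to 0.16), cohesin (-0.45 to 0.43), mRNA storage (-0.40 to 0.41), mitochondrially encoded proteins (-0.96 to 0.67), lipid droplets (-0.91 to 0.03), insulin signalling (-0.53 to 0.44), histones (-0.61 to 0.36) and RNA polymerase II (-0.19 to 0.38). The cause was not tested. Depth limited the early sum of gilt 803, where 0 counts allow up to 0.185 CPM.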
